A study of Mus musculus with 4 samples.

Results

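The p53 pathway genes described here are Trp53, Mdm2, Ccng1, Btg2, Phlda3, Trp53inp1, Gdf15, Perp, Sesn1 and Sesn2, which are p53 itself, its main antagonist and targets of p53 other than p21. They were taken by symbol, as all probes that the normalized array table gives to one of these 10 genes. This yielded 21 of 45263 probes. Of these probes, 14 were above background in at least 2 of 4 samples, and they measured 8 of the 10 genes, among 11516 genes tested. Sesn1 and Gdf15 had been picked because they moved in opposite directions between the groups, so their values are given as a description with no test. The other 8 genes were not picked by their values.

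p53, encoded by Trp53 in the mouse, is a transcription factor that stays at a low level in unstressed cells because MDM2 ubiquitinates it for degradation. When DNA damage or another stress stabilizes the protein, it binds paired copies of a short half-site and activates genes of growth arrest, DNA repair, apoptosis and metabolism, and also Mdm2, which closes a feedback loop. Since this control acts mainly on the protein, the Trp53 transcript itself is not a measure of p53 activity. Several p53 targets also answer to other regulators. Sesn2 and Gdf15, for example, are targets of ATF4 and CHOP, transcription factors of the integrated stress response.

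Gene expression was measured in lenses of mice at postnatal day 6, with 1 lens per array. The Celf1 cKO lenses (n = 2, replicates A and B) came from mice with a germline knockout allele, Celf1lacZKI, a Celf1flox allele whose exon 5 is flanked by loxP sites, and the Pax6GFPCre transgene, which is active from the lens placode onwards and also in the pancreatic lineage. The Control lenses (n = 2, A and B) came from Celf1lacZKI/+ mice, so the lacZ knock-in allele was common to both groups, and the background was a mix of C57BL/6J and FVB. The Control genotype as labelled includes neither the Celf1flox allele nor Cre. CELF1 is an RNA-binding protein that controls the stability, splicing and translation of mRNAs.

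Celf1 stood at log2 signals of 7.45 and 6.95 in cKO A and B and of 8.71 and 8.55 in Control A and B, a reduction in cKO (log2 fold change -1.43 ± 0.19 SE, adjusted p = 0.00978, and 0.056 with Control B left out). The Celf1 signals are means over 4 of its 5 probes. A probe among the 4 read an unnormalized intensity of 258 in cKO B and 254 in Control B. Without normalization between arrays the log2 difference of Celf1 was -0.60, where the median of all genes tested was 0.57. Whether its probes lie in exon 5 was not determined. The cKO arrays were brighter, with 16261 and 16925 probes detected against 14542 and 14180. Xist was detected on both cKO arrays and on neither Control array (at least 6.09-fold higher), and the Y-linked Ddx3y was lower in cKO at 6.81 and 4.83 against 8.99 and 8.82. Uty, also Y-linked and named after its values were seen, was above background on both cKO arrays and on neither Control array and was not called (4.67 and 4.89 against 4.47 and 4.52, adjusted p = 0.226). The labels give no sex, and genotype and these transcripts cannot be told apart in 4 samples. Of 13 lens fiber markers 11 were measured, and of 8 markers of surface epithelium none passed the detection filter.

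Of the 6 tested genes that were not picked by their values, Ccng1, Phlda3 and Trp53inp1 were called elevated in Celf1 cKO lenses, and Trp53, Mdm2 and Sesn2 were not called. A call required an adjusted p below 0.05, a log2 fold change beyond 0.58 in either direction and an average log2 signal above 4.6. Over all genes tested, 11.6% were called, 6.01% as elevated and 5.64% as reduced. Groups that do not overlap are common in these data, at 62.3% of all genes tested, with both cKO values above both Control values in 32.6% and below in 29.7%. No call among the 6 genes was left when Control B was left out. With 2 lenses per group, an exact permutation test cannot reach p = 0.05.

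**Figure D1:**
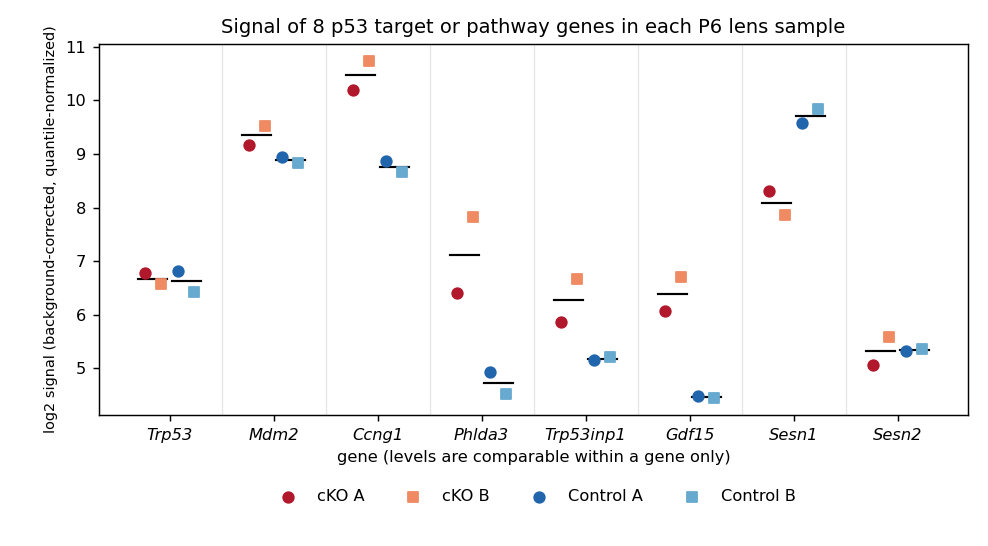
The plot gives the log2 signal of the 8 measured genes (vertical axis) in each of the 4 samples, with cKO A and B in red and orange and Control A and B in dark and light blue, and black lines at the group means. Both cKO samples lie above both Control samples for Mdm2, Ccng1, Phlda3, Trp53inp1 and Gdf15 and below both for Sesn1, and the groups overlap for Trp53 and Sesn2.

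The Trp53 transcript did not separate the groups. Its log2 signal was 6.78 in cKO A, 6.57 in cKO B, 6.82 in Control A and 6.42 in Control B. The highest and the lowest of these values both belonged to Control. The difference was 0.05 ± 0.18 (SE, 95% interval -0.38 to 0.48, adjusted p = 0.866). These values came from 1 of 3 probes, and the other two were not above background on any array.

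Mdm2, the E3 ubiquitin ligase that removes p53, was read by 2 of its 3 probes. Its log2 signal was 9.17 and 9.52 in cKO A and B and 8.94 and 8.83 in Control A and B. Both cKO values were above both Control values, but the difference of 0.46 ± 0.17 did not pass the adjusted test (95% interval 0.07 to 0.85, adjusted p = 0.111). The probes differed by 0.34 and 0.58.

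Mdm4, the relative of Mdm2 that inhibits p53 without being a ubiquitin ligase of its own, had 5 probes, of which none was above background on any array. Of 23 regulators of p53, among them kinases, deubiquitinases, acetyltransferases and ubiquitin ligases, 16 were tested and 1 was called, which is 6.25% against 11.6% of all genes. This was Atr, a kinase of the DNA damage response, elevated by 1.26 ± 0.20 (adjusted p = 0.0142, but 0.0666 without cKO B and 0.056 without Control B). The median log2 fold change of the 16 was -0.11, and that of all genes tested was 0.01.

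Ccng1, which encodes cyclin G1, a p53 target that recruits protein phosphatase 2A to MDM2, was elevated in cKO lenses. Its log2 signal was 10.19 in cKO A and 10.74 in cKO B, against 8.86 in Control A and 8.66 in Control B. Even the lower cKO value was above the higher Control value by more than the cKO lenses differed from each other. The fold change was 3.27 (log2 1.71 ± 0.21, 95% interval 1.22 to 2.20, adjusted p = 0.00728). All 3 probes of Ccng1 were elevated when tested singly, by 1.92, 1.91 and 1.30 on the log2 scale. The brightest of them read an unnormalized intensity of 4629 and 5850 in cKO A and B and of 1446 and 1043 in Control A and B, with standard errors over beads of 178 and 261 in cKO and of 69.2 and 108 in Control.

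Phlda3 encodes a small protein of little more than a pleckstrin homology domain, which competes with AKT for membrane lipids. Its log2 signal was 6.40 in cKO A, 7.83 in cKO B, 4.93 in Control A and 4.52 in Control B. The cKO lenses lay well apart from each other, with a SD of 1.01 in cKO against 0.29 in Control. The difference between groups was 2.39 ± 0.42, a fold change of 5.24 (95% interval of the log2 value 1.39 to 3.39, adjusted p = 0.0192). On Control B neither probe was above background, so that the Control mean behind these values includes 1 array with no detected signal. The probes gave 2.72 and 2.06.

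Trp53inp1, whose nuclear protein promotes p53 phosphorylation and takes part in autophagy, stood at 5.87 and 6.66 in cKO A and B and at 5.16 and 5.21 in Control A and B. It was called elevated at 1.09 ± 0.25 (95% interval 0.49 to 1.68, adjusted p = 0.0378), a 2.12-fold change of the mean over 2 probes. The call was lost when cKO B (adjusted p = 0.164), Control A (0.0862) or Control B (0.125) was left out. Its probes did not move alike. They are shown because the result turns on them, as bases 11 to 40 of each 50-base probe in the array annotation, 5′ to 3′ in lower case.
Trp53inp1, transcript position 19: ttgtgaggttagaagtgtgtatttgggggc
Trp53inp1, transcript position 5108: caccaatctatgcataaatggcagcttgtt
The probe at position 19 read a log2 signal of 6.95 and 8.01 in cKO against 5.77 and 5.28 in Control, a difference of 1.96 ± 0.34 (adjusted p = 0.015 over all probes tested singly). The probe at position 5108 read 4.79 and 5.31 in cKO against 4.55 and 5.13 in Control. Its difference was 0.21 ± 0.25 (adjusted p = 0.605), and Control B lay above cKO A. This probe read unnormalized intensities of 58.6 and 78.6 in cKO and of 51.9 and 53.5 in Control and was not above background on Control A, so that it says little about the far end of the transcript. The elevation of Trp53inp1 rests on the probe at position 19.

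**Figure D2:**
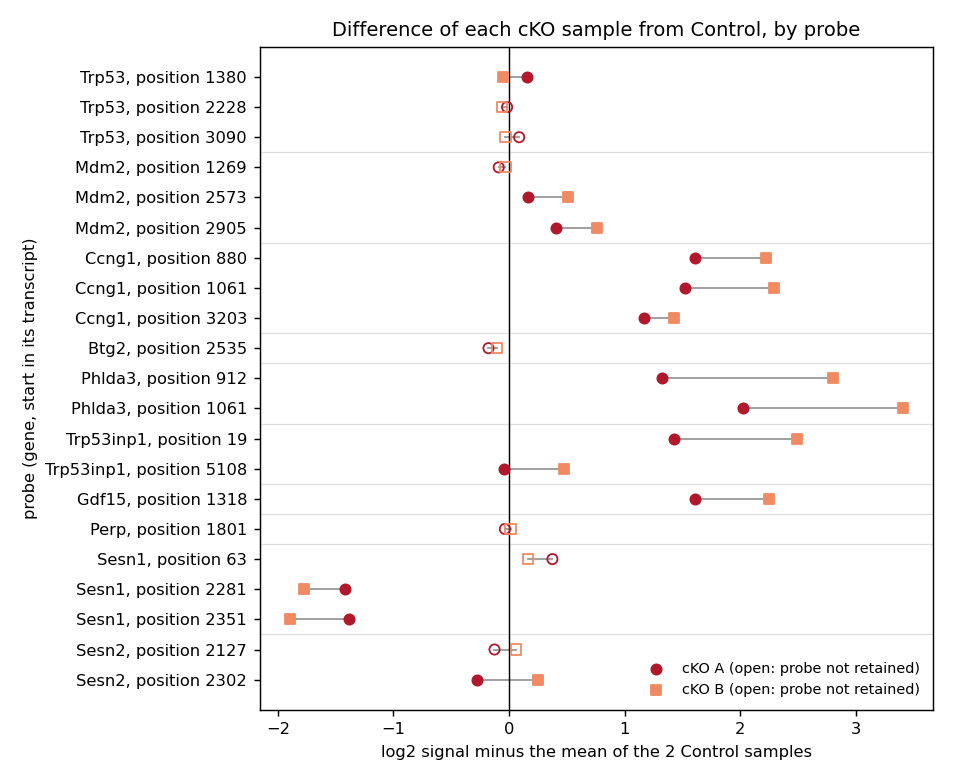
Each row is 1 of the 21 probes, named by gene and start position in its transcript, and the horizontal axis gives the log2 signal of cKO A (circles) and cKO B (squares) minus the mean of the 2 Control samples, with open symbols for the 7 probes not retained. The 3 Ccng1 probes, both Phlda3 probes, the Gdf15 probe and the Trp53inp1 probe at position 19 lie to the right of 0 in both cKO samples, and the Sesn1 probes at positions 2281 and 2351 lie to the left.

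Btg2 and Perp could not be compared. Btg2 encodes an antiproliferative protein that binds the CCR4-NOT deadenylase, and Perp encodes a membrane protein of desmosomes that also promotes apoptosis. Each had 1 probe. The Btg2 probe read unnormalized intensities between 43.0 and 47.1 on the 4 arrays and the Perp probe between 40.1 and 45.0, and neither was above background on any of them. This means that no signal was detectable with these probes, not that the transcripts were absent. Btg1, the paralog of Btg2, had log2 signals of 10.04 and 9.39 in cKO and of 10.70 and 10.45 in Control (difference -0.86 ± 0.23, adjusted p = 0.0544), and Ccng2, the paralog of Ccng1, differed by 0.04 (adjusted p = 0.857). Of 12 paralogs of the 10 genes, 8 were tested and 1, Sesn3, was called, which is 12.5% against 11.6% of all genes.

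PERP sits in the desmosome, and 10 genes of desmosomes and neighbouring cell junctions were followed. Of these, 6 were tested and 1 was called (16.7%, against 11.6% of all genes). This was Dsp, desmoplakin, which anchors intermediate filaments at the desmosome. Dsp was above background on both cKO arrays and on neither Control array, with a bound of at least 1.73-fold higher in cKO (adjusted p = 0.0141, and 0.0705 without Control B). Having passed the detection filter through the cKO arrays only, it could be called only as elevated, and it had too few detected arrays to be retained when a cKO array was left out.

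Sesn1 was reduced in the Celf1 cKO lenses. Sestrins are stress-induced proteins that restrain mTORC1, the kinase complex that couples amino acids to growth, by binding GATOR2, and Sesn1 is the family member best known as a p53 target. The probes are shown because the loss of signal rests on those 2 that were retained, again as bases 11 to 40 of 50, 5′ to 3′ in lower case.
Sesn1, transcript position 2281: ccaacaatgtggaaaatgtggttgcagtct
Sesn1, transcript position 2351: gctgacctcgggaccctgactttgaaggtt
Sesn1, transcript position 63: gcgtacgcagcctcgctggctgtctccgag
The array annotation places the first on chr10:41627921-41627970 and the second on chr10:41627991-41628040, both on the plus strand, 20 bases apart, in a genome build that the files do not name. The first is annotated as common to all isoforms of the gene. The third, on chr10:41607317-41607366 near the start of the transcript, is annotated as specific to 1 isoform.

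The mean log2 signal of Sesn1 over its retained probes was 8.30 in cKO A, 7.87 in cKO B, 9.57 in Control A and 9.83 in Control B. Both cKO values lay more than 1 log2 unit below both Control values. The difference was -1.62 (SE 0.19), a 3.07-fold lower signal. The probe at position 2281 gave a difference of -1.60 and that at position 2351 of -1.64. Since they lie next to each other, they are not separate evidence for the whole transcript. The isoform-specific probe was above background on cKO A only and was not retained. Its log2 signal was 4.76 and 4.55 in cKO and 4.51 and 4.26 in Control, and so close to background it could not have shown a reduction.

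The reduction of Sesn1 was smaller before scaling between arrays. The probe at position 2351 read an unnormalized intensity of 581 and 443 in cKO A and B and of 913 and 788 in Control A and B, with standard errors over beads between 11.1 and 49.8. The cKO values were lower there too. Without normalization between arrays the log2 difference of Sesn1 was -0.76, where the median of all genes tested was 0.57.

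Sesn2, the sestrin that senses leucine, showed no such difference at the 1 of its 2 probes that was retained, at position 2302. The other, at position 2127, was above background on cKO B only. The log2 signal of the retained probe was 5.06 in cKO A and 5.59 in cKO B, on both sides of the Control values of 5.32 and 5.36. The difference was -0.01 ± 0.20 (95% interval -0.47 to 0.45, adjusted p = 0.975). Sesn3, the sestrin most often linked to FOXO transcription factors, was called elevated at 1.38 ± 0.18 (adjusted p = 0.00895). It stood at 6.14 and 6.54 in cKO against 5.06 and 4.87 in Control, and the call was lost without cKO B (adjusted p = 0.0604) or Control B (0.056). The sestrins thus had differences of -1.62 for Sesn1, -0.01 for Sesn2 and 1.38 for Sesn3 on the log2 scale.

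Of 24 genes of the mTORC1 and sestrin pathway, 23 were tested and 4 were called, a share of 17.4% against 11.6% of all genes. Sqstm1, which encodes the autophagy receptor p62, a binding partner of sestrins, was elevated by 2.20 ± 0.16 (adjusted p = 0.00201), and Rheb, the GTPase that activates mTORC1, by 0.62 ± 0.15 (adjusted p = 0.0459). Tsc2, whose product inactivates RHEB, was reduced by -1.15 ± 0.26 (adjusted p = 0.0339), and Rragc, a GTPase that brings mTORC1 to the lysosome, by -0.98 ± 0.14 (adjusted p = 0.0109). No subunit of GATOR1 or GATOR2 on the list was called. The median log2 fold change of the 23 was 0.07. Sqstm1 alone was called when cKO B or Control B was left out, and Tsc2 and Rragc were not called, at -0.32 and -0.15, without normalization between arrays, where the median of all genes was 0.57.

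Gdf15 encodes a secreted cytokine of the TGF-beta superfamily, which signals through the receptor GFRAL and is induced by many kinds of cell stress. Its single probe is shown in the same way, since the value of the gene rests on it.
Gdf15, transcript position 1318: tcttatgcacaggacagacagtggtgtgtc
Gdf15 read an unnormalized intensity of 111.5 in cKO A (bead standard error 4.66), 172.2 in cKO B (6.83), 50.7 in Control A (2.47) and 44.3 in Control B (2.18). It was above background on both cKO arrays and on neither Control array. The log2 signals were 6.08 and 6.71 in cKO and 4.49 and 4.45 in Control, so that the cKO group was higher by a bound of at least 3.15-fold. Because it was above background in the cKO group only, it could enter the comparison only as an elevated gene.

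The integrated stress response, the other pathway known to act on Gdf15 and Sesn2, was followed with a list of 16 genes, all of which were tested. Without Gdf15, 9 of 15 were called (60%, against 11.6% of all genes), 8 of them elevated. Of these 8, Chac1, Trib3 and Atf3 were above background in the cKO group only and so could be called only as elevated. With a cKO array left out, 12 of the 15 were tested, and Chac1 was not among them. The median log2 fold change of the 15 was 0.87, against 0.01 for all genes. Chac1, a glutathione-degrading enzyme, was at least 8.61-fold higher (adjusted p = 0.00089). Ddit3, which encodes CHOP, was elevated by 2.97 ± 0.16, Ddit4, an inhibitor of mTORC1, by 1.81 ± 0.16 and Cebpb, a leucine zipper transcription factor, by 1.33 ± 0.19. The Ddit3 value is a mean over probes. The probe detected on all 4 arrays gave 3.79, and the other was above background on 2 arrays only. Ppp1r15a, whose product lets translation resume, was reduced by -1.51 ± 0.29 (adjusted p = 0.0229, but 0.0781 with cKO B and 0.11 with Control B left out), and by -0.67 with no normalization. Atf4, which is controlled mainly by translation, differed by 0.44 ± 0.14 and did not pass (adjusted p = 0.0827). With a sample left out, the 9 calls became 5 (cKO A), 2 (cKO B), 8 (Control A) and 5 (Control B), and Ddit3 was called each time.

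Other targets of p53 were followed with 3 lists of growth arrest and DNA repair, apoptosis, and metabolism with autophagy and other roles. These lists were drawn up with earlier results of these data known, and they hold 62 genes besides the 10 above. Of 48 tested, 13 were called, which is 27.1% against 11.6% of all genes, with 12 elevated and 1 reduced. Of the 48, 5 were above background in the cKO group only and so could be called only as elevated. They were Cdkn1a, Plk2 and Polk, which are among the 12, and Ckap2 and Pidd1, which were not called and are named after their values were seen. The median log2 fold change was 0.30. With a sample left out, the 13 calls became 6 (cKO A), 2 (cKO B), 6 (Control A) and 3 (Control B). With a cKO sample left out, 42 of the 48 were tested, and Cdkn1a, Plk2 and Polk no longer passed the filter. Ddit4 was called each time, Cdkn1a with either Control sample left out, where alone it was tested, and each of the other 11 genes lost its call at least once.

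In the growth arrest and repair list, 6 of 17 tested genes (35.3%, against 11.6% of all genes) were called, all elevated. Of the 17, 4 were above background in the cKO group only, among them Cdkn1a, Plk2 and Polk. These could be called only as elevated, so the share and its direction are in part set by the detection filter. Cdkn1a, which encodes the cyclin-dependent kinase inhibitor p21, was at 7.91 and 9.32 in cKO and at 4.48 and 4.47 in Control, where it was not above background. The bound was at least 14.7-fold higher in cKO (adjusted p = 0.00425). Zmat3, which encodes an RNA-binding zinc finger protein, was elevated by 1.43 ± 0.21, the stress kinase gene Plk3 by 1.34 ± 0.19 and Gadd45a, a growth arrest gene of the DNA damage response, by 1.06 ± 0.22. The others were Polk, a translesion DNA polymerase, and the kinase gene Plk2, both below background on the Control arrays, which were at least 1.17-fold and 1.28-fold higher. With the same median over probes detected on all arrays, Polk stood at 0.082 and Plk2 at 0.135, where the median of all genes was -0.19. Neither was called there, with no background correction or with an offset of 50.

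In the apoptosis list, 3 of 16 tested genes (18.8%, against 11.6% of all genes) were called and were elevated. Bax, a pore-forming member of the BCL2 family, was elevated by 0.98 ± 0.20 (adjusted p = 0.0264), Ak1, which encodes an adenylate kinase, by 0.96 ± 0.24 and Rps27l, which encodes a ribosomal protein paralog, by 0.70 ± 0.15. With cKO B left out, these 3 stood at 0.71, 0.58 and 0.57, and with the deposited normalized table plus 16 only Bax was called. The other 13 tested genes were not called. In the metabolism list, 4 of 15 tested genes were called (26.7%, against 11.6% of all genes). Ddit4, Dcxr, which encodes a xylulose reductase, and Ulk1, a kinase that starts autophagy, were elevated by 1.81, 1.41 and 0.82. Dcxr stood at 0.76 (adjusted p = 0.141) with cKO B left out, and it was not called with no background correction, cyclic loess or the brightest probe. Abhd4, which encodes a lipid hydrolase, was reduced by -0.84 ± 0.14 (adjusted p = 0.0175), but it stood at 0.02 without normalization between arrays, where the median of all genes was 0.57.

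**Figure D3:**
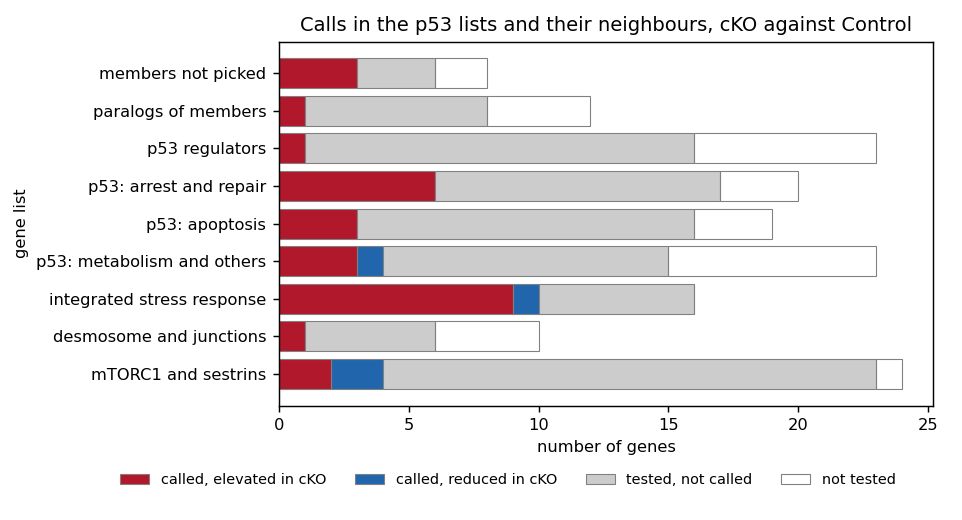
Bars count the genes of each list (horizontal axis, number of genes) that were called elevated in cKO, called reduced, tested but not called, or not tested, with the 8 genes not picked by their values in the top bar. The 3 lists of other p53 targets hold 12 elevated and 1 reduced genes among 48 tested, against 1 elevated of 16 tested p53 regulators, and the bar of the integrated stress response includes Gdf15.

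The cKO lenses differed from each other in these genes. This comparison is of single lenses, so no test is given. It is also not independent of the direction by which Sesn1 and Gdf15 were picked, since 493 of all 692 elevated genes were higher in cKO B (median 0.14) and 481 of all 649 reduced genes were lower (median -0.14). Phlda3 was higher in cKO B than in cKO A by 1.43 on the log2 scale, Trp53inp1 by 0.79, Gdf15 by 0.63, Ccng1 by 0.55, Sesn2 by 0.53 and Mdm2 by 0.35. Over all 11516 genes the median of this difference was 0.00 and its SD 0.26, and 0.0955% of genes exceeded Phlda3, 1.32% exceeded Gdf15 and 6.16% exceeded Mdm2. Cdkn1a was higher in cKO B by 1.40. Sesn1 was lower in cKO B by -0.43, with 3.92% of all genes further down, and Trp53 by -0.21. Celf1 was also lower in cKO B, by -0.50, as was Ddx3y, by -1.98, and their part in these differences was not tested.

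The same order was seen before normalization. Phlda3 at its brighter probe read 177 in cKO A and 455 in cKO B, and Cdkn1a at its brightest probe read 642 and 1823. Over the 48 other p53 targets tested, 31 were higher in cKO B, against 5678 of all 11516 genes. Their median was 0.15 on the log2 scale against 0.00 for all genes. In the growth arrest and repair list 8 of 17 were higher, with a median of -0.02. Over the 12 called elevated, 10 were higher in cKO B, with a median of 0.32. Of all 692 elevated genes, 493 were higher there, with a median of 0.14. Gadd45a was an exception, lower in cKO B by -0.62.

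Genes of the integrated stress response did not move together between the cKO lenses. Leaving out Gdf15, Sesn2 and Ddit4, which belong to both pathways, 5 of 13 tested were higher in cKO B, with a median of -0.20, and of the 7 called elevated 2 were higher and 5 lower, with a median of -0.30. Chac1 differed by -0.48, Ddit3 by -0.31, Trib3, a pseudokinase gene, by -0.30 and Atf3, a stress-induced transcription factor gene, by -0.55. Cebpb was higher in cKO B by 0.25 and Psat1, a serine synthesis enzyme gene, by 0.37. Trib3, Atf3 and Psat1 were named after their values were seen. Chac1 read an unnormalized intensity of 381 in cKO A and 300 in cKO B. Which regulator acts on any of these genes was not tested. In a whole lens, more RNA per cell and more cells that express a gene cannot be told apart.

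**Figure D4:**
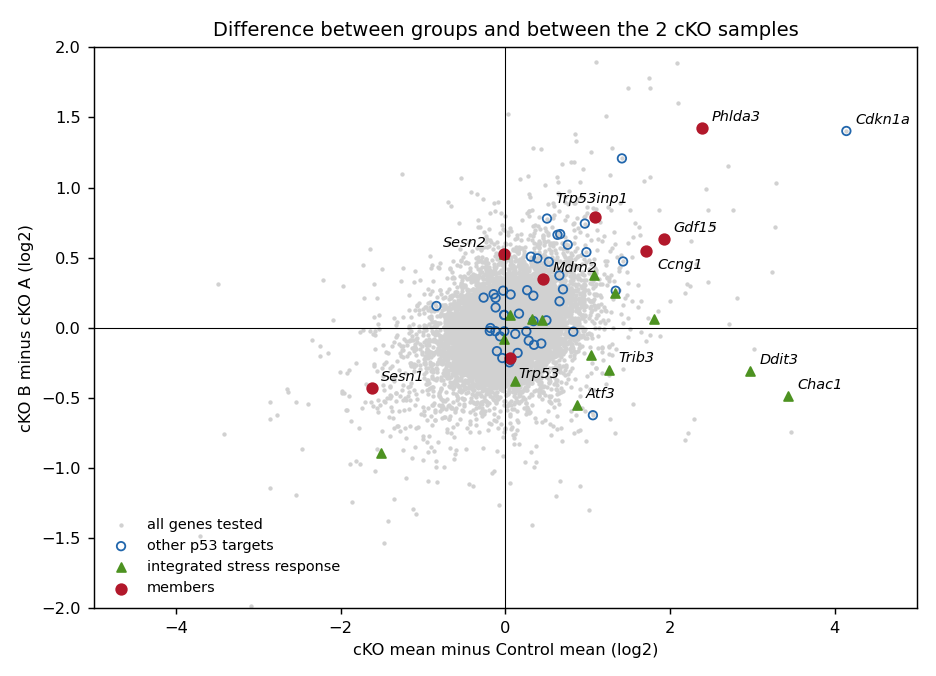
The horizontal axis gives the difference between the cKO and Control means and the vertical axis the difference between cKO B and cKO A, both in log2 units, for all genes tested (grey, with 4 genes outside the axes), other p53 targets (open circles), genes of the integrated stress response other than Gdf15 (triangles, which include Ddit4) and the 8 measured genes (red). Phlda3, Gdf15, Ccng1, Trp53inp1 and Cdkn1a lie in the upper right, Chac1, Ddit3, Trib3 and Atf3 in the lower right, and Sesn1 in the lower left.

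The tested genes most like Sesn1 in their centred log2 values over the 4 samples were LOC100041613, Actb and Pbld1, at Euclidean distances of 0.08, 0.10 and 0.11. Actb, which encodes beta-actin, stood at 10.50 and 9.99 in cKO and at 11.71 and 11.89 in Control. Those most like Gdf15 were Tgfbi, Ccng1 and Kank1, at distances of 0.20, 0.26 and 0.32. Tgfbi, which encodes an extracellular matrix protein, and Kank1 were, like Gdf15, above background in the cKO group only. With 4 samples, such likeness describes these lenses only.

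RefSeq promoters of assembly GRCm38.p6, from 250 bases before to 50 bases after a gene's start, were matched by symbol for 8 of the 10 genes. They held 10 promoters, since Sesn1 and Gdf15 had a pair each, and none was matched for Trp53inp1 and Perp. The p53 half-site consensus, which is its own reverse complement and so was read on both strands at once, occurred without a mismatch in 1 promoter each of Sesn1, Mdm2, Ccng1 and Trp53, and in 8.36% of all 32851 promoters. These stretches of 100 bases upstream of the start are shown because genes with this match were elevated (Ccng1), lower (Sesn1) and not called (Mdm2, Trp53). They are written 5′ to 3′ in the direction of the gene, with the half-site in capitals.
Ccng1, chr11:40755417-40755516, minus strand: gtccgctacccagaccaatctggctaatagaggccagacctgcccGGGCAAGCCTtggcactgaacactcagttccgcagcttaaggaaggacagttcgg
Sesn1, chr10:41887221-41887320, plus strand: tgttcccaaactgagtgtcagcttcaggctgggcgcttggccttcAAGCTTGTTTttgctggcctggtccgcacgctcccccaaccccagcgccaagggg
Mdm2, chr10:117710890-117710989, minus strand: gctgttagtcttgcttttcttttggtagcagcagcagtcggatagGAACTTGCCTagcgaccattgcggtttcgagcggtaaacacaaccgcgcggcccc
Trp53, chr11:69580239-69580338, plus strand: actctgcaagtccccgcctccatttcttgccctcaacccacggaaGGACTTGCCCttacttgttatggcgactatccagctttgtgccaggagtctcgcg
The match begins 185 bases before the start of Ccng1, 173 before that of Sesn1, 186 before that of Mdm2 and 75 before that of Trp53. Ccng1 and Sesn1 both match the consensus, with different letters, and differ in the direction of their signal. The promoters of Gdf15, Phlda3, Btg2 and Sesn2 held no exact match in this window. The letters TGATGNAA, the core of a motif bound by ATF4 with C/EBP proteins, were searched on both strands, do not overlap the half-site, and occurred in none of the 10 promoters and in 3.97% of all. A match is a description of the letters, not evidence of binding, and p53 sites often lie in introns, which were not searched.

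Markers of other cell types were followed beside these genes. Of 7 macrophage markers 5 were tested, and 2 were called, which is 40% against 11.6% of all genes. These were Cd68 and C1qb, at least 1.26-fold and 1.22-fold higher. Like C1qc, which was not called, they were above background in the cKO group only and so could be called only as elevated. With a cKO sample left out, 2 of the 5 were tested, and Cd68, C1qb and C1qc were not. Neither Cd68 nor C1qb was called without Control B or with no background correction. Csf1r and Aif1 were not called. The summed log2 signal of the 5 was 24.6 to 24.9 in cKO and 23.0 to 23.2 in Control. Of 10 lens epithelium markers 9 were tested, their median log2 fold change was -0.54, and Foxe3, a transcription factor gene of the lens epithelium, was reduced by -0.80 ± 0.14 (adjusted p = 0.0176, but 0.0738, 0.141 and 0.0615 with cKO A, cKO B or Control B left out). It was the only call of the 9 (11.1%, against 11.6% of all genes), and it stood at -0.26 (adjusted p = 0.312) with no normalization. There 3 of the 9 were called elevated and 0 reduced, and with the same median over all probes 2 and 0. The summed log2 signal of these 9 was 63.2 to 65.0 in cKO and 67.9 to 68.3 in Control. Of 13 lens fiber markers, the 11 tested had a median of -0.22 and a summed log2 signal of 138.1 to 139.8 in cKO and 143 to 143.3 in Control, with 2 called reduced, the beaded filament gene Bfsp2 (-0.76) and Birc7 (-1.45), which is 18.2% against 11.6% of all genes. With the deposited normalized table plus 16, or with the same median over probes detected on all arrays, 9 of the 11 were called reduced, whereas 1 was called elevated and 1 reduced with the same median over all probes or with no normalization. The part of these shifts in the p53 pathway results was not tested.

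Across the 23 processing alternatives, the elevated genes and Sesn1 kept their direction wherever they were measured as a gene. Several of these settings change only the thresholds or the test and leave the estimate as it is, so they could not alter a direction. Sesn1 and Gdf15 were picked by their direction, so for them this is a description only. Ccng1 ranged from 1.30 to 2.54 on the log2 scale, Phlda3 from 1.56 to 3.19, Trp53inp1 from 0.67 to 1.96 and Sesn1 from -1.83 to -0.76. The fitted values of Gdf15, which compare with Control signals not above background, were positive in each. Trp53 and Sesn2 lay on both sides of 0. Mdm2 stayed above 0, between 0.29 and 1.32, and it was called only when the arrays were set to the same median over all probes or were not normalized.

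**Figure D5:**
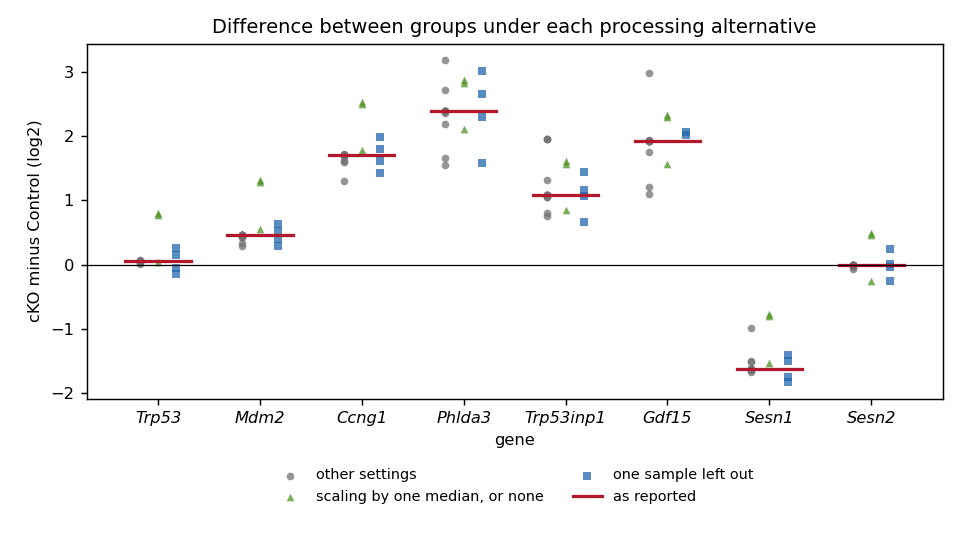
The vertical axis gives the log2 difference between cKO and Control for the 8 measured genes as reported (red lines), under alternatives with 1 sample left out (squares), with arrays scaled by a median or not at all (triangles) and under the other settings (circles). Ccng1, Phlda3, Trp53inp1 and Gdf15 lie above 0 throughout, Sesn1 lies below 0 throughout, and Trp53 and Sesn2 straddle it.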

How the data were processed

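Total RNA of 4 lenses was hybridised to Illumina MouseWG-6 v2.0 BeadChips. The authors deposited unnormalized signal intensity and an intensity normalized by the rank-invariant method, per the file headers. Array by array, the second equalled the first times 0.913, 0.889, 1.46 and 1.93 minus a constant of 36.1, 36.4, 62.8 and 74.7 (cKO A and B, Control A and B). The deposited tables also held a detection p-value, ranking a probe against negative controls, and the bead number and standard error. The median number of beads per probe was 38 to 40. Lines with shifted cells (18 of 45281) were left out.

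With limma 3.58.1 in R 4.3.3, neqc (offset 16) was used for background correction, quantile normalization and log2 transformation. The 16262 probes detected at p below 0.05 on 2 or more arrays were retained and averaged by gene. Differences were tested two-sided by lmFit and eBayes, adjusting over 11516 genes after Benjamini and Hochberg. The thresholds follow the study's methods, and the count model named there was not applied to intensities. The SE, intervals and p-values use a variance that eBayes moderates toward that of all genes tested. They can therefore be narrower or wider than the spread between the lenses of a gene gives. With 2 arrays per group, the number of arrays limits the precision.

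Where all arrays of a group had a gene below background, a bound is given. It compares the other group's mean with a floor averaged over those arrays, which is the lowest detected signal of the array or the gene's own value if that was greater. The 10 genes, the lists and the tests were chosen with earlier results of these data known. All 10 genes are named with each probe. Of each other list except markers, up to 6 called genes of largest change are named, with Cdkn1a, Atf4, Ddit3, Mdm4, Sesn3, Ccng2 and Btg1 in any case and the 3 genes nearest to Sesn1 and to Gdf15. Further lists of blood, vessel, retina, pigment cell and muscle markers had 3, 5, 1, 1 and 2 genes tested, of which Slc4a1 was called reduced and Emcn elevated (11.6% of all genes were called), both with no call without cKO B or Control B. Rpl5, Rpl11, Sco2 and Bfsp1 were not matched to a probe. Gene names and promoters came from RefSeq, assembly GRCm38.p6. The labels do not say whether the replicate letters pair the samples, and the main fit did not pair them. Across genes, the A minus B differences of the groups had a correlation of -0.01, which cannot settle this. Tables were read with Python version 3.11.15. Alternatives varied the starting table, background correction, scaling, filters, several probes of a gene, variance model, fold threshold, replicate block and each sample left out.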

Additional observations from a re-analysis of the deposited data

How the results depend on the processing

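The number of genes called was 1341 as reported, and 3 of the 8 genes not picked by their values were among them. With the deposited normalized table and values under 1 set to 1, these counts were 7 and 0, with no detection filter 207 and 0, with a test against the fold threshold 86 and 0, and with a minimum signal of 6 they were 879 and 1. An offset of 50 gave 789 calls in all. Setting the arrays to the same median over all probes gave 5417 and 5, with Trp53 (0.77) and Mdm2 (1.28) added, and no normalization gave 5788 and 5. These settings moved the median of all genes tested to 0.53 and 0.57. Setting the same median over probes detected on all arrays gave 2690 calls in all, of which 667 were elevated, and moved that median to -0.19. Leaving out 1 sample gave 163 to 1364 calls in all and 0 to 3 among the 8 genes. The 13 calls among 48 other p53 targets, 12 elevated and 1 reduced, became 32 and 34, all elevated, with the same median over all probes and with no normalization, 10 elevated and 3 reduced with the same median over detected probes, 0 with the floor of 1, 1 with no detection filter and 2 with the test against the fold threshold.

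Trp53 changed sign without cKO A (-0.05) and without Control B (-0.15), with -0.15 to 0.26 over the 4 samples left out in turn, and Sesn2 did so with the same median over all probes (0.46), without normalization (0.50), without cKO A (0.24) and without Control B (0.01), with -0.25 to 0.24 over the samples left out. With the replicate letter as a replicate block there were 1685 calls, which held all 1341, and 3 among the 8 genes. The letters are labels of separate lenses, and their differences did not run together across groups. Gdf15 could not be tested with a cKO array left out, nor Gdf15 and Phlda3 with detection required on all 4 arrays. The cause of these changes was not tested. The calls of Ccng1, Phlda3 and Trp53inp1 were lost with the floor of 1, with no detection filter, with the test against the fold threshold and without Control B. Trp53inp1 also lost its call with the deposited normalized table plus 16 (log2 1.06, adjusted p = 0.0532). Signal near background limits Gdf15 and Phlda3 in Control.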
